A study of Mus musculus with 6 samples.

Results

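The 10 genes described here encode the enzymes and helpers that modify, fold, trim and cross-link collagen. They are the lysyl oxidases Lox, Loxl1, Loxl2 and Loxl3, the prolyl 4-hydroxylase subunits P4ha1 and P4ha2, the lysyl hydroxylases Plod1 and Plod2, the procollagen processing enhancer Pcolce and the collagen chaperone Serpinh1. They were taken by gene symbol from a table of 16131 genes, and all 10 were listed and among the 14676 genes tested (those with 1 FPKM or more in 3 or more of the 6 libraries, where FPKM are sequenced fragments scaled by transcript length and library total). The 6 libraries were made from skin of C57BL/6 mice in which streptozotocin, a poison of pancreatic beta cells, had induced diabetes, and the skin was taken 7 days after wounding. For 3 of them the mice received rFGF4, a recombinant form of fibroblast growth factor 4, at 100 ng/ml and 10 µl daily, and for the other 3 the same daily volume of phosphate-buffered saline (PBS). The labels give no other treatment, and both groups were diabetic and wounded, so no healthy or unwounded skin stands beside them.

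Collagen chains are modified inside the endoplasmic reticulum before they leave the cell. Prolyl 4-hydroxylases add the hydroxyl groups that keep the collagen helix stable at body temperature, lysyl hydroxylases mark the lysines used for sugar attachment and for cross-links, and Serpinh1, also called HSP47, binds the folded helix and escorts it towards the Golgi. Outside the cell, procollagen C-proteinase removes the end domains with help from Pcolce, and the copper-dependent lysyl oxidases oxidise lysines of collagen and elastin so that fibres become covalently cross-linked. In healing skin these steps set the strength and stiffness of the new dermis.

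Lox, Loxl1, Loxl2 and Plod2 were higher in rFGF4 than in PBS skin, and all 4 encode enzymes that act on lysines, as do Loxl3 and Plod1, which did not pass. Lox rose 2.31-fold, Plod2 1.89-fold, Loxl2 1.73-fold and Loxl1 1.65-fold (limma adjusted p = 0.00728, 0.0208, 0.0288 and 0.0215). Thus 4 of the 10 members passed in the higher direction and 0 in the lower, where limma called 12.1% of all tested genes, 8.46% higher and 3.62% lower. Among transcripts of 3000 to 4000 bases, which include Loxl1 and Plod2, 9.94% were called higher. Among those of 4000 to 6000 bases, which include Lox and Loxl2, the share was 14.9%. With each library centred on its median 2 of the 4 still passed (Lox and Plod2), and with a trend on transcript length removed 1 did (Lox). For the other 6 members, the log2 fold changes were 0.41 to 0.68, except in Serpinh1, where it was -0.15 (0.35 with quantile normalization). The median of the 10 was 0.65, and 0.194 over all tested genes. In 7 members all 3 rFGF4 libraries lay above all 3 PBS libraries, a pattern found in 30.9% of the tested genes.

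**Figure D1:**
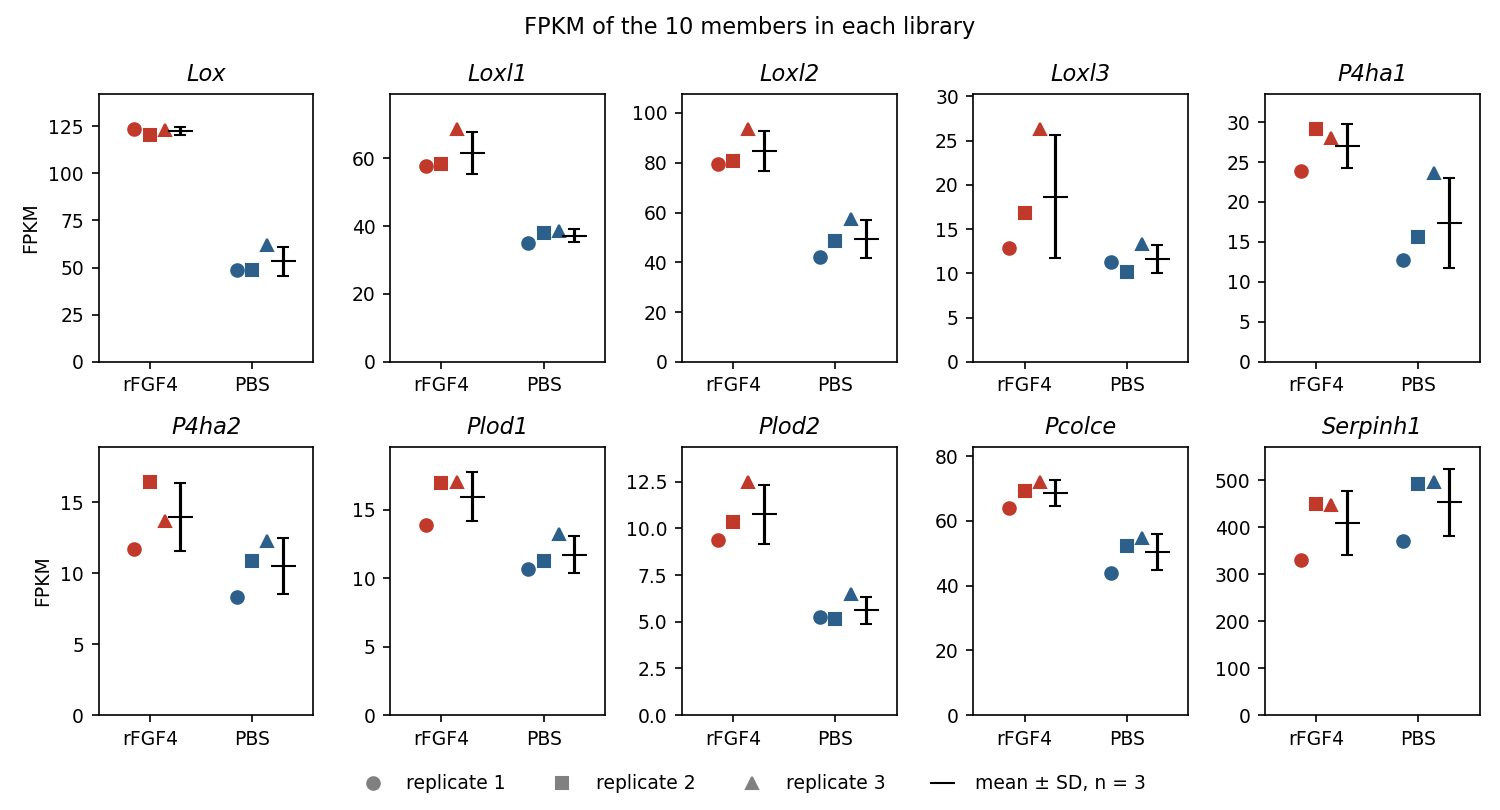
FPKM of each member in every library, rFGF4 on the left and PBS on the right of each panel, with the mean and SD of 3 libraries beside the points. The groups are separate in 7 panels and overlap in Loxl3, P4ha2 and Serpinh1, and each vertical axis starts at 0 with its own scale.

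The libraries were alike in total, with listed values that summed to 304717 to 319807 FPKM. Within a group, Pearson's r between libraries on the log2 scale ran from 0.944 to 0.958, and between the groups from 0.901 to 0.944 (r is taken over genes, and genes do not count as replicates). FPKM keep no read counts, so the depth behind each value is unknown, and since no label says that each replicate was its own animal, the p-values rest on a library-to-library spread that could be purely technical. Keratinocyte markers of skin were present (summed 2692 to 3773 FPKM in rFGF4 and 2203 to 7362 FPKM in PBS libraries), and the samples also held skeletal muscle RNA (1266 to 2544 FPKM in rFGF4 and 1938 to 4072 FPKM in PBS libraries). Fold changes rose with transcript length across the table (Spearman's rho 0.502 over 14191 genes, a description only), and the members have transcripts of 1626 to 5316 bases, with all but Pcolce above 2000 bases. The fold change of each member is also given with that trend removed, where the median over all genes was -0.02. In this bulk tissue, fewer cells of a type and less RNA per cell cannot be told apart.

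Lox, the founding lysyl oxidase, showed the widest separation of the 10. It measured 123.7, 120.2 and 123.1 FPKM in the rFGF4 libraries, against 48.75, 48.95 and 62.02 FPKM in the PBS libraries. The rFGF4 libraries were close to each other, and the lowest of them stood well above the highest PBS library, PBS replicate 3. The log2 fold change was 1.21 (SE 0.140, limma adjusted p = 0.00728), and 99.4% of the tested genes had a lower value. Lox passed in each of the 6 fits that left out 1 library, with limma adjusted p between 0.0175 and 0.0472. With the length trend removed its log2 fold change was 0.85 and it passed again (limma adjusted p = 0.0263), the 1 member to do so where 0.543% of genes were called higher. In that setting it passed without PBS replicate 3 (limma adjusted p = 0.0475) but not without any other library (0.0734 to 0.122). An antisense transcript is annotated across 1207 bases of the Lox locus, and whether strand was used in counting is not stated.

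Loxl2, which oxidises collagen IV and other matrix proteins, measured 79.44, 80.77 and 93.73 FPKM in rFGF4 libraries, against 42.26, 48.40 and 57.27 FPKM in PBS libraries. Loxl1, best known for elastic fibres, measured 57.74, 58.33 and 68.71 FPKM in rFGF4 libraries, against 35.02, 37.83 and 38.58 FPKM in PBS libraries. In both genes the groups did not overlap and rFGF4 replicate 3 was the highest library. Loxl2 rose by 0.79 (SE 0.155) and Loxl1 by 0.72 (SE 0.124) on the log2 scale. The Loxl2 call was lost whichever library was left out (limma adjusted p 0.0565 to 0.103), and the Loxl1 call was kept without rFGF4 replicate 1 (0.0492) or 2 (0.0419) but lost without rFGF4 replicate 3 (0.0613) or PBS replicate 1 (0.0875), 2 (0.0837) or 3 (0.0627). With the length trend removed Loxl2 had 0.40 and Loxl1 0.44 (limma adjusted p = 0.270 and 0.172). With each library centred on its median they had 0.605 and 0.54 (limma adjusted p = 0.0835 and 0.0687), in a setting that called 0.940% of genes higher. The antisense gene Gm27177 is annotated across 74219 bases of the Loxl2 locus.

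Loxl3, a lysyl oxidase with scavenger receptor domains like those of Loxl2, was the least abundant of the 4. Its values were 12.90, 16.77 and 26.37 FPKM in rFGF4 libraries, against 11.34, 10.12 and 13.28 FPKM in PBS libraries. The groups overlapped and the rFGF4 libraries were widely spread, with replicate 3 far above replicate 1. Its log2 fold change of 0.63 did not pass (SE 0.263, limma adjusted p = 0.152), and without rFGF4 replicate 3 it was 0.35 (adjusted p = 0.256 by limma). With the length trend removed it was 0.30. The gene shares 1297 bases with Htra2 on the opposite strand.

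Within the family, Lox was the most abundant in every library and Loxl2, Loxl1 and Loxl3 followed in that order. Their summed level was 273.8, 276.1 and 311.9 FPKM in rFGF4 libraries, against 137.4, 145.3 and 171.1 FPKM in PBS libraries. Lox made up 42.7% ± 2.9 of that sum in rFGF4 and 35.1% ± 1.3 in PBS skin (SD, n = 3 each), with no overlap between the groups. On the log2 scale Lox gained 0.48 more than Loxl1, 0.42 more than Loxl2 and 0.58 more than Loxl3. The Lox to Loxl1 and Lox to Loxl2 ratios were higher in 3 of 3 rFGF4 libraries than in any PBS library, at the smallest two-sided p that an exact permutation test of 3 against 3 libraries can give (p = 0.1, adjusted p = 0.167 over the 5 pairs of related genes compared). The Lox to Loxl3 ratio overlapped between groups (exact permutation p = 0.2, adjusted p = 0.2). On the log2 scale rFGF4 replicate 3 (2.22) lay below PBS replicate 2 (2.26). None of these differences passed the threshold of 0.05, which this design cannot reach.

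Loxl4, the remaining member of the enzyme family, was read from the list of other pathway genes. It measured 4.398, 3.818 and 3.445 FPKM in rFGF4 libraries, against 1.928, 1.490 and 2.006 FPKM in PBS libraries, without overlap. It rose by a log2 fold change of 1.07 (SE 0.179, limma adjusted p = 0.0205), passed in 1 of the 6 fits with a library left out, and had 0.76 with the length trend removed (adjusted p = 0.0796 by limma).

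**Figure D2:**
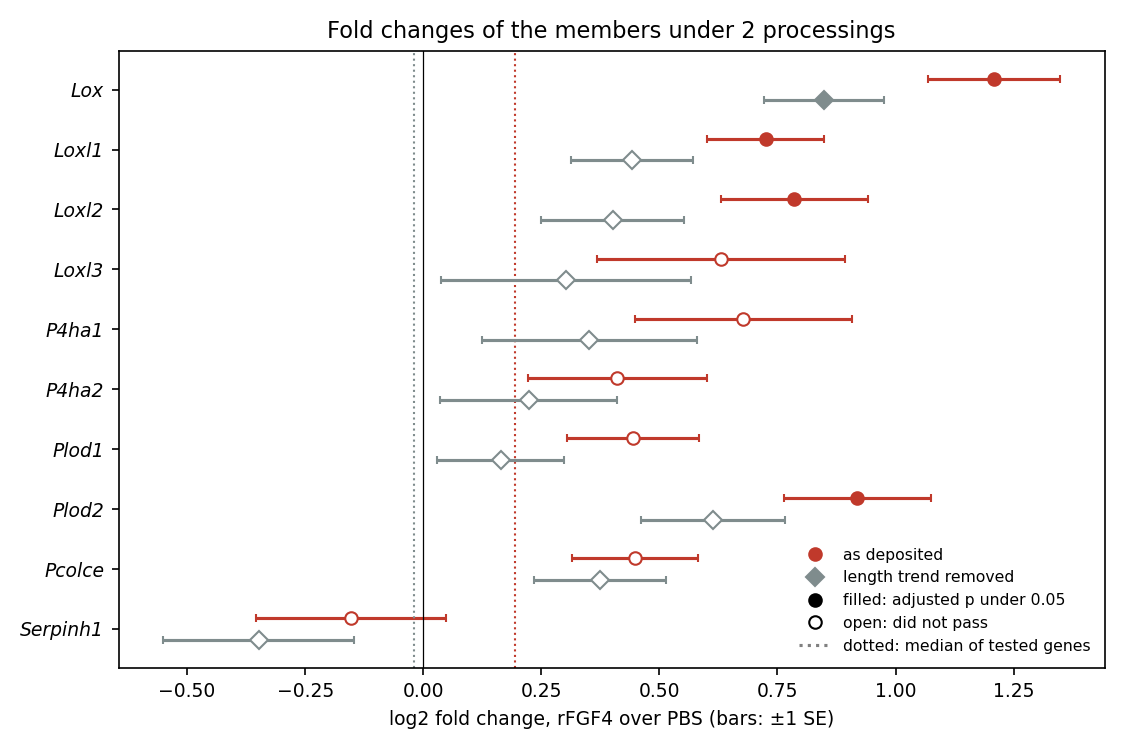
Log2 fold change of rFGF4 over PBS with its standard error for each member, as deposited (circles) and with the length trend removed (diamonds). Filled symbols passed limma at an adjusted p under 0.05, dotted lines mark the median of all tested genes in each setting, and Lox is the 1 member filled in both.

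Of the lysyl hydroxylases, Plod2 passed the test and Plod1 did not. Plod2 hydroxylates the telopeptide lysines, the short chain ends from which the more stable class of collagen cross-links grows. It measured 9.382, 10.33 and 12.49 FPKM in rFGF4 libraries, against 5.245, 5.157 and 6.461 FPKM in PBS libraries. The groups were well separated, and replicate 3 was the highest library in each. The log2 fold change was 0.92 (SE 0.155, limma adjusted p = 0.0208), and 0.61 with the length trend removed (adjusted p = 0.118 by limma). The call was kept without rFGF4 replicate 1 (0.0466) or 2 (0.0461) and with median-centred libraries (0.0435), and it was lost without rFGF4 replicate 3 (0.0573) or PBS replicate 1 (0.0852), 2 (0.0825) or 3 (0.0514). Gm38391 overlaps 647 bases of the Plod2 locus on the opposite strand.

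Plod1 hydroxylates lysines within the helix. It measured 13.92, 16.97 and 17.06 FPKM in rFGF4 libraries, against 10.67, 11.25 and 13.24 FPKM in PBS libraries. The groups were separate by a small margin, rFGF4 replicate 1 lying just above PBS replicate 3. Its log2 fold change of 0.44 did not pass (SE 0.139, limma adjusted p = 0.0789) and was 0.16 with the length trend removed. Plod2 made up 40.1% ± 2.2 of the sum of both genes in rFGF4 and 32.4% ± 0.84 in PBS skin (SD, n = 3 each), so that Plod1 stayed the more abundant in every library. The log2 ratio of Plod1 to Plod2 was 0.57 ± 0.13 in rFGF4 and 1.05 ± 0.05 in PBS libraries, without overlap (exact permutation p = 0.1, the smallest possible, adjusted p = 0.167). That difference of -0.47, which did not pass, was -0.45 with the length trend removed. Plod3, the relative that also carries glycosyltransferase activity, had a log2 fold change of 0.30 (adjusted p = 0.305 by limma).

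P4ha1 and P4ha2 encode alternative catalytic subunits of prolyl 4-hydroxylase. Both are known targets of hypoxia-inducible factors, which bind a short core of ACGTG or GCGTG, and so are Lox, Loxl2, Plod1 and Plod2 among the members. RefSeq promoter sequence was available for 5 of the 10 members (P4ha1, P4ha2, Plod1, Pcolce and Serpinh1). It is shown for P4ha1, P4ha2 and Plod1, the members with that known regulation for which it was at hand, and for Serpinh1, the member whose mean, as deposited, was not higher with rFGF4. Each sequence runs 5′ to 3′ on the strand of its gene, from 250 bases before the start listed by RefSeq (GRCm38.p6) up to the first annotated base of the gene. Capitals mark the core on either strand.
P4ha1, chr10:59323046-59323196, plus strand: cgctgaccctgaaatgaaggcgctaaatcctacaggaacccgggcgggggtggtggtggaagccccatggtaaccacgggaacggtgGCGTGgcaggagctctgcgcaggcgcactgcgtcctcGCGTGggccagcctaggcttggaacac
P4ha2, chr11:54100674-54100923, plus strand: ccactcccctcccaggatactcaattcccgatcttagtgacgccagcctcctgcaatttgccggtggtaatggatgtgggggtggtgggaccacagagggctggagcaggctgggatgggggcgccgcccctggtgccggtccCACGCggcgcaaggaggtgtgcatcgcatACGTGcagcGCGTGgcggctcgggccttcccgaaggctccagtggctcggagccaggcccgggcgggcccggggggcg
Plod1, chr4:147936777-147937026, minus strand: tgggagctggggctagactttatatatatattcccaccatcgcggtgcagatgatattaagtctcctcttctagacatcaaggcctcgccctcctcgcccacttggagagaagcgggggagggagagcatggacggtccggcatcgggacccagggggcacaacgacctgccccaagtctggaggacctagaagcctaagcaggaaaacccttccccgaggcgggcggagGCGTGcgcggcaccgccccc
Serpinh1, chr7:99353240-99353489, minus strand: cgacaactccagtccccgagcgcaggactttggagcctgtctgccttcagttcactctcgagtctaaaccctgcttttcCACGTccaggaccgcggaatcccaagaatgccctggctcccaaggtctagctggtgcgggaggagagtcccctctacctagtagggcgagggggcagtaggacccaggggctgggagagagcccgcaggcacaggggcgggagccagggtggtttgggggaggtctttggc
Over the whole window of 300 bases (250 before and 50 after the start), P4ha1 held 3 cores, P4ha2 4, Plod1 2 and Serpinh1 1, of which 2, 3, 1 and 1 fall in the stretches shown. A core was present in 43.8% of the 32851 mouse promoter windows of the same length, and 3 or more in 8.93%. A match is a description of letters and does not show binding.

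Neither P4ha1 nor P4ha2 passed the test. P4ha1 measured 23.91, 29.19 and 27.99 FPKM in rFGF4 libraries, against 12.80, 15.64 and 23.62 FPKM in PBS libraries. The groups were separate by a narrow margin, because PBS replicate 3 nearly reached rFGF4 replicate 1. The log2 fold change of 0.68 did not pass (SE 0.230, limma adjusted p = 0.0964). With 1 library left out it ran from 0.48 without PBS replicate 1 (limma adjusted p = 0.209) to 0.92 without PBS replicate 3 (0.0565). It passed in 0 of these 6 fits.

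P4ha2 measured 11.72, 16.46 and 13.69 FPKM in rFGF4 libraries, against 8.356, 10.85 and 12.31 FPKM in PBS libraries, and the groups overlapped. Its log2 fold change was 0.41 (SE 0.189, adjusted p = 0.189 by limma). With the length trend removed the values were 0.35 for P4ha1 and 0.22 for P4ha2. P4ha1 made up 66.1% ± 1.8 of the sum of both in rFGF4 and 61.8% ± 3.5 in PBS skin (SD, n = 3 each), and the difference in response between them, 0.27 on the log2 scale, lay within overlapping values (exact permutation p = 0.2, adjusted p = 0.2). P4hb, the shared beta subunit that is also a protein disulfide isomerase, had a log2 fold change of 0.35 (adjusted p = 0.201 by limma) and P4ha3 one of 0.60 (0.101).

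Of the 6 members known as targets of hypoxia-inducible factors, Lox, Loxl2 and Plod2 passed as given above, and P4ha1, P4ha2 and Plod1 did not. All 15 listed targets outside the members were tested, and 0 of them passed limma in either direction, where 12.1% of all tested genes did. An unadjusted limma p under 0.05 was reached by 4713 of the 14676 tested genes and by 1 of these 15. That gene was Egln1, an oxygen-sensing prolyl hydroxylase, with a log2 fold change of 0.39 (adjusted p = 0.140 by limma). Next by p was Slc2a1, the glucose transporter GLUT1, at -0.37 (adjusted p = 0.189 by limma). The list's median was 0.11, against 0.194 over all tested genes. These shares are not matched for length, and the 15 transcripts ran from 654 bases (Vegfa) to 5185 bases (Pdk1). The median log2 fold change was -0.36 in the class under 1000 bases and 0.35 in that of 4000 to 6000 bases. With the length trend removed 0 of the 15 passed limma, where 2.16% of genes did, and the list's median was -0.14 against -0.02. In that setting 3 of the 15 had an unadjusted limma p under 0.05, a share not counted over all genes.

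Pcolce, a glycoprotein that speeds removal of the procollagen C-propeptide, measured 64.09, 69.35 and 72.05 FPKM in rFGF4 libraries, against 43.98, 52.12 and 54.84 FPKM in PBS libraries. The groups did not overlap. The log2 fold change of 0.45 did not pass (SE 0.133, limma adjusted p = 0.0699). It was 0.375 with the length trend removed (adjusted p = 0.263 by limma), and 0.265 where the longest transcript gave the length (0.391). Its principal transcript is the shortest of the 10. Pcolce shares 1282 bases with Fbxo24 on the same strand, so its reads may be split between both genes.

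Serpinh1 was the most abundant member in every library. It measured 329.8, 448.7 and 446.7 FPKM in rFGF4 libraries, against 371.3, 493.0 and 497.0 FPKM in PBS libraries. The groups overlapped, and replicate 1 was the lowest library of each. Its log2 fold change was -0.15 (SE 0.202, limma adjusted p = 0.649) and 19.2% of the tested genes had a lower one. The sign turned with quantile normalization (0.35, adjusted p = 0.295 by limma), whereas it was -0.33 with median-centred libraries and -0.35 with the length trend removed, none of them passing.

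The levels of the members were ranked by FPKM, which are scaled by length. Fold changes still rose with transcript length (Spearman's rho 0.502), and whether that moved ranks between the groups was not tested. In rFGF4 skin Serpinh1 (408 ± 68.1 FPKM) stood first, followed by Lox (122 ± 1.88), Loxl2 (84.7 ± 7.90), Pcolce (68.5 ± 4.05), Loxl1 (61.6 ± 6.17), P4ha1 (27.0 ± 2.77), Loxl3 (18.7 ± 6.93), Plod1 (16.0 ± 1.79), P4ha2 (14.0 ± 2.38) and Plod2 (10.7 ± 1.59; FPKM, mean ± SD, n = 3). The ranges overlapped between Pcolce and Loxl1, between P4ha1 and Loxl3, between Loxl3 and Plod1, and between Plod1 and P4ha2, and also between P4ha2 and Plod2. In PBS skin Serpinh1 (454 ± 71.4 FPKM) was again first. Lox (53.2 ± 7.60), Pcolce (50.3 ± 5.65) and Loxl2 (49.3 ± 7.55) followed with overlapping ranges, then Loxl1 (37.2 ± 1.87) and P4ha1 (17.4 ± 5.61), each apart from its neighbours except that P4ha1 overlapped Plod1. Plod1 (11.7 ± 1.35), Loxl3 (11.6 ± 1.59) and P4ha2 (10.5 ± 2.00) overlapped, and Plod2 was again last (5.62 ± 0.728; FPKM, mean ± SD, n = 3).

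Col1a1, the alpha 1 chain of type I collagen and the main substrate of these enzymes, served as a yardstick, since a ratio to it within a library does not move with how that library is scaled. Col1a1 itself measured 2094, 2154 and 2154 FPKM in rFGF4 libraries, against 1239, 1542 and 1559 FPKM in PBS libraries, a log2 fold change of 0.57 that did not pass (SE 0.169, limma adjusted p = 0.0697). Relative to Col1a1, Lox was higher by 0.64 on the log2 scale, Plod2 by 0.35 and Loxl2 by 0.22, each without overlap between the groups. Serpinh1 was lower relative to Col1a1, with a log2 ratio of -2.40 ± 0.23 in rFGF4 and -1.68 ± 0.05 in PBS libraries (SD, n = 3 each), a difference of -0.72 or a ratio 0.606 times as large, again without overlap. These 4 differences kept their direction with the length trend removed, at 0.68, 0.45, 0.24 and -0.51. The ratios were not computed with quantile normalization, where the log2 fold change of Serpinh1 itself was 0.35 instead of -0.15. As deposited, most of the -0.72 lay in the higher Col1a1 (0.57) and not in Serpinh1 (-0.15). The median over all tested genes, 0.194, was also below the value of Col1a1. How many of all genes lacked overlap in their ratio to Col1a1 was not counted.

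Each of those 4 stood at the smallest p that the exact two-sided permutation test allows (p = 0.1, adjusted p = 0.2 over the 10 ratios), so none passed. Pcolce was also without overlap at -0.12, but had 0.21 with the length trend removed. The ratios of Loxl1, Loxl3, P4ha1, P4ha2 and Plod1 to Col1a1 overlapped between the groups, with differences of -0.16 to 0.16 (exact permutation p 0.3 to 1). Once the length trend was removed Loxl1 had 0.28 at the smallest possible p (exact permutation p = 0.1), and P4ha1 had 0.19, Loxl3 0.14, P4ha2 0.06 and Plod1 0.00.

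**Figure D3:**
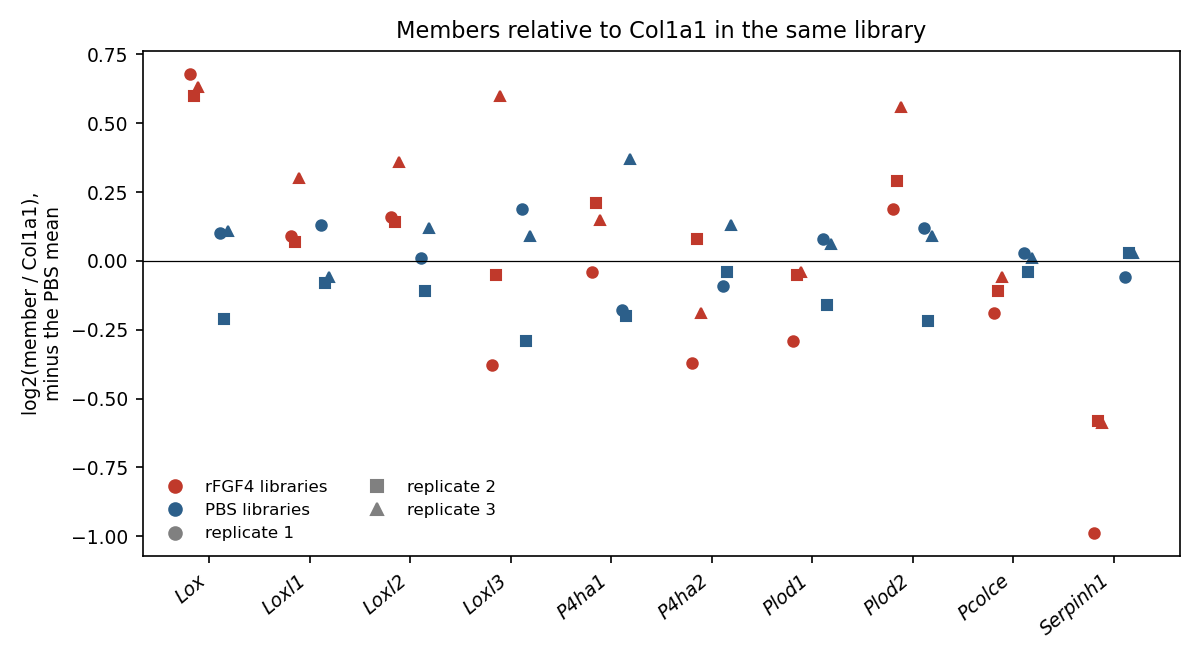
Log2 ratio of each member to Col1a1 in the same library, drawn as the difference from the mean of the PBS libraries, with rFGF4 points left of PBS points and 1 marker shape per replicate number. Lox lies above its PBS points by 0.64 and Serpinh1 below by 0.72 on average, while the points of Loxl1, Loxl3, P4ha1, P4ha2 and Plod1 are mixed.

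Among the substrates, 8 of 9 tested fibrillar collagens and elastin had a positive log2 fold change, as did 69.8% of all tested genes. Limma called 8.46% of all tested genes higher and 3.62% lower. Of the 9, 5 passed in the higher direction and 0 in the lower (median log2 fold change 0.74). They were Eln, the elastin gene (34.8 ± 9.03 FPKM in rFGF4 and 13.2 ± 2.24 FPKM in PBS libraries, SD, n = 3 each), Col5a2, Col3a1, Col1a2 and Col5a1, with log2 fold changes of 1.37, 0.87, 0.90, 0.76 and 0.63 (limma adjusted p = 0.0187, 0.0267, 0.0298, 0.0401 and 0.0469). Col11a2 was the member of that list with a negative value, -0.22 (adjusted p = 0.552 by limma). In the fits with a library left out Eln passed in 3 of 6, Col5a2 and Col3a1 in 1 each and the other 2 in 0. With the length trend removed 0 of the 9 passed limma, where 0.543% of genes were called higher and 1.61% lower. Of the 9, 4 had an unadjusted limma p under 0.05 there, a share not counted over all genes. Eln had 1.06 (adjusted p = 0.0583 by limma).

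Other modifying enzymes, chaperones and associated genes had a median of 0.41. Limma called 3 of the 16 tested higher and 0 lower (8.46% and 3.62% of all tested genes). These were Mia3, the TANGO1 receptor that loads collagen for export (21.8 ± 1.30 FPKM in rFGF4 and 13.6 ± 0.337 FPKM in PBS libraries, SD, n = 3 each, limma adjusted p = 0.0168), Fkbp14, a prolyl isomerase (0.0344), and Colgalt1, which adds galactose to hydroxylysine (0.0445). On the log2 scale they rose by 0.67, 0.71 and 0.47. Ppib, the cyclophilin of the prolyl 3-hydroxylation complex, and Tmem38b had negative values of -0.23 and -0.20 that did not pass. Of 11 general folding factors of the endoplasmic reticulum limma called 0 (median of the list 0.38). An unadjusted limma p under 0.05 was found in 6 of them, each with a positive value, and in 4713 of the 14676 tested genes. Limma called 2 of the 11 higher with quantile normalization, where it called 235 of the 14676 tested genes higher. It also called 2 of the 11 higher where 5 FPKM in 3 libraries were required, beside 1223 of the 8596 genes tested there (14.2%). Pdia3 came nearest, at 0.52 (limma adjusted p = 0.0549), and Canx had 0.41 (0.0589).

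Procollagen processing and other cross-linking genes had a median of 0.62. Of the 7 tested, limma called 2 higher and 0 lower, where it called 8.46% and 3.62% of all tested genes. Beside Loxl4 this was Adamts2, the procollagen N-proteinase (34.0 ± 2.98 FPKM in rFGF4 and 20.7 ± 1.44 FPKM in PBS libraries, SD, n = 3 each), which rose by 0.71 on the log2 scale (adjusted p = 0.0203 by limma). Bmp1, the C-proteinase that Pcolce assists and that also activates pro-Lox, had 0.62 and did not pass (adjusted p = 0.0841 by limma), and Tgm2, a transglutaminase, had -0.07. With the length trend removed 0 of these 7 and 0 of the 16 modifying genes passed limma, where 0.543% of genes were called higher. An unadjusted limma p under 0.05 was seen in that setting for 1 of the 7 and 3 of the 16, shares not counted over all genes.

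Genes for the copper supply and the extracellular scaffold of lysyl oxidases moved in both directions (median 0.33). Limma called 2 of the 8 higher and 1 lower, where it called 8.46% and 3.62% of all tested genes. Fn1, fibronectin, rose by 0.95 and Postn, periostin, which helps Bmp1 reach pro-Lox, by 1.09 on the log2 scale (limma adjusted p = 0.0157 and 0.0212). Atox1, the chaperone that hands copper to the Golgi pump, fell to 14.11, 35.22 and 23.20 FPKM in rFGF4 libraries, against 106.0, 84.91 and 81.35 FPKM in PBS libraries (a log2 difference of -1.99 with SE 0.321, adjusted p = 0.0196 by limma). Atox1 also passed at -1.44 once the length trend was removed (adjusted p = 0.0427 by limma) but in 2 of the 6 fits with a library left out, and its transcript of 541 bases lies in the class under 1000 bases, where the median log2 fold change was -0.36. Atp7a, that pump itself, measured 2.200, 2.204 and 2.168 FPKM in rFGF4 libraries, against 0.9531, 0.9998 and 1.697 FPKM in PBS libraries, and did not pass (0.84, adjusted p = 0.0670 by limma). Across these 6 lists 13 genes were called, where limma called 12.1% of all tested genes. Without any 1 of the PBS libraries 0 were called, where the share of all tested genes was 1.06% to 1.53%. Without rFGF4 replicate 1, 2 and 3 the lists had 5, 8 and 3 calls, beside 2.71%, 6.06% and 2.30% of all tested genes. With the length trend removed they had 1, Atox1, beside 2.16%.

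**Figure D4:**
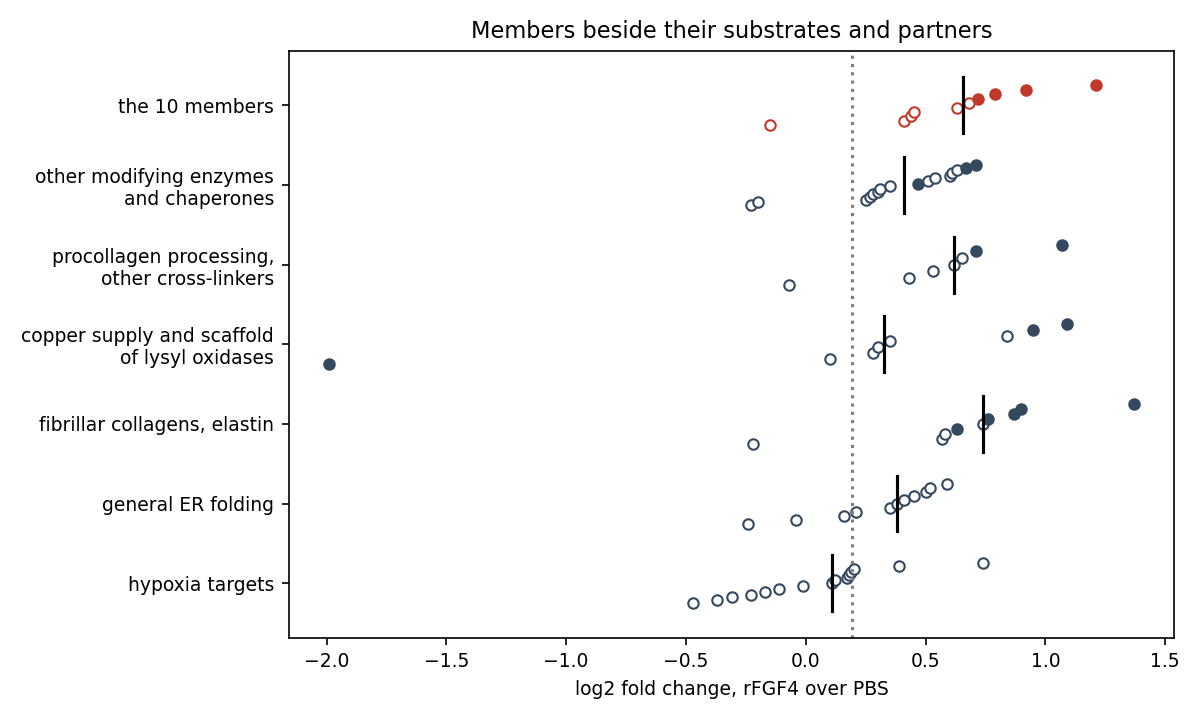
Log2 fold changes of rFGF4 over PBS for the 10 members and for each list of partner and comparison genes, 1 point per tested gene, filled where limma passed at an adjusted p under 0.05. Black bars are list medians and the dotted line is the median of all tested genes, 0.194; the members' median of 0.65 lies between those of procollagen processing (0.62) and of fibrillar collagens and elastin (0.74).

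Of 6 fibroblast markers 4 passed limma in the higher direction (Pdgfra, Dcn, Lum and Fap), where 8.46% of tested genes did, and Pdgfrb (0.53, adjusted p = 0.0956) and Thy1 (0.13, adjusted p = 0.544) did not. The summed level of Pdgfra, Pdgfrb, Dcn, Lum, Thy1 and Fap was 501.1 to 625.0 FPKM in rFGF4 and 284.1 to 336.4 FPKM in PBS libraries, none of them at 0 in any library. In 5 of the 6, all but Thy1, the rFGF4 libraries lay above all PBS libraries, as in 30.9% of tested genes. With the length trend removed 0 of the 6 passed limma, where 0.543% of genes were called higher. In that setting 4 had an unadjusted limma p under 0.05, a share not counted over all genes. Smooth muscle and myofibroblast markers (Acta2, Tagln, Cnn1 and Myh11) had 0 of 4 called and summed to 187.8 to 225.8 FPKM in rFGF4 and 206.8 to 267.4 FPKM in PBS libraries. Macrophage markers had 2 of 5 called, both higher, and summed to 147.0 to 201.8 FPKM in rFGF4 and 97.13 to 143.1 FPKM in PBS libraries. The 2 were Mrc1 (1.59, limma adjusted p = 0.00154) and Cd163 (0.92, 0.0384), which passed in 6 and 1 of the 6 fits with a library left out. With the length trend removed 1 of the 5 passed, Mrc1 (1.20, limma adjusted p = 0.00291). Neutrophil markers had 0 of 4 called and summed to 208.4 to 689.1 FPKM in rFGF4 and 465.6 to 2769 FPKM in PBS libraries. Most of that sum was S100a8 (-2.28, limma adjusted p = 0.0567) and S100a9 (-1.74, 0.163), with short transcripts of 486 and 519 bases. Cxcr2 had -0.13 and Mmp8 -0.05. Where 5 FPKM in 3 libraries were required 1 of 3 tested was called lower, beside 4.96% of genes. Adipocyte and endothelial markers had 0 of 3 called each. The part of these cell types in the members' results was not tested.

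The genes whose deviations over the 6 libraries were nearest to those of Lox were Ccdc88a, Dsel, Npas2, AW551984 and Abi3bp. Their root-mean-square log2 differences from Lox were 0.111 to 0.117, and their own log2 fold changes 1.07 to 1.24. The authors' deposited table gave 4 of the 10 members a q-value under 0.05, where 11.1% of all listed genes did, and all 4 were also called by limma. In the authors' deposited table the q-value of Lox was 1.18e-09, against 0.00201 for Plod2, 0.00868 for Loxl1 and 0.0168 for Loxl2, and for Serpinh1 it was 0.265.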

How the data were processed

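Poly(A) RNA of 6 skin samples went into libraries with a dUTP-marked second strand, with paired-end reads, per the labels' protocols. The tools in the submitters' processing notes are edgeR, fastp, StringTie and HISAT2. Those notes give GRCh38, a human build, so the reference used for these mouse samples is not settled. The header of the deposited table names no unit, and its values were taken to be the authors' FPKM, from their range and from StringTie. The deposited table also holds the authors' p-value and q-value, a fold ratio of group means and its log2. Only genes whose highest value passed 1 FPKM are listed (smallest maximum 1.0001).

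Values were tested as log2(FPKM + 0.1) in limma (two-sided, trend and robust options, group as the only term) over the 14676 genes that reached 1 FPKM in 3 or more libraries, with Benjamini-Hochberg adjustment over all of them and a threshold of 0.05. Fold changes are on that scale and understate changes of low genes. Ratios between genes were tested by exact two-sided permutation over libraries. The length trend was removed by loess (span 0.3, degree 1) of each library's deviations on log2 length of the principal GENCODE M21 transcript, known for 96.7% of tested genes. Other alternatives were pseudocounts, filters, median centring, quantile normalization, the replicate number as a block and leaving out each library. Leaving out libraries with the trend removed, and lengths of the longest transcript, were added after the data were seen. Genes named are the 10 members, up to 4 called or the 2 nearest genes of each list, and the 5 nearest to Lox; further list and marker genes (among them Plod3, P4hb, P4ha3, Ppib, Tmem38b, Bmp1, Tgm2, Atp7a, Col5a1 and Col11a2) were named after their values were seen. The members and lists were chosen with earlier results of these data known. A name listed more than once was read from its most abundant entry. Scripts were tested on simulated data. Software was Python 3.11.15 and, in R 4.3.3, statmod 1.5.0 with limma 3.58.1.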

Additional observations from a re-analysis of the deposited data

How the results depend on the processing

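Of all tested genes, 1773 were called as deposited (1241 higher, 532 lower), 755 with median-centred libraries (138 higher, 617 lower), 749 with quantile normalization (235 higher, 514 lower), 306 with the length trend removed, 315 with lengths of the longest transcript, and 156 to 890 with a library left out (191, 221 and 177 without rFGF4 replicate 1, 2 and 3 and 73, 75 and 117 without PBS replicate 1, 2 and 3 when the length trend was removed as well). Of the 10 members 4 were called as deposited, 2 with median-centred libraries (Lox and Plod2), 1 with the length trend removed by either length (Lox), 1 to 3 with a library left out, and 0 to 1 with both. Of the other pathway genes 13 were called as deposited. Where 5 FPKM in 3 libraries were required 16 were called, beside 1649 of the 8596 genes tested there (19.2%, against 12.1% as deposited). With median-centred libraries 4 were called, with the length trend removed 1 and with a library left out 0 to 8. Pseudocounts of 1 or 0.01 and the other filters on low values kept the same 4 members.

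Serpinh1 turned to 0.35 with quantile normalization. Relative to Col1a1, P4ha2 turned to 0.06 and Pcolce to 0.21 with the length trend removed, and Loxl3 to -0.21 without rFGF4 replicate 3 and -0.08 without PBS replicate 2, its range without a library reaching 0.28. Replicate numbers did not pair the libraries: deviations of same-numbered libraries correlated at 0.183, -0.067 and -0.125, and not every library correlated best with its own number. With the replicate block 233 genes, 2 members (Lox and Plod2) and 1 other pathway gene were called. For changes between settings the cause was not tested. Depth is unknown, so the spread of 3 libraries per group is the only measure of precision.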
